A study of Mus musculus with 16 samples.

Results

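The type I interferon response genes are the genes that cells switch on when interferon alpha or beta reaches them, together with some of the factors that carry that signal. A list of 43 of them was compared over 4 genotypes of mouse osteoclast cultures. The list was matched by gene symbol, and 41 of the 43 genes were among the 21936 genes of the count table. Mx1 and Mx2 were not analysed here. All 41 passed the filter on low counts that left 12093 genes for testing.

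Type I interferons bind the receptor pair IFNAR1 and IFNAR2, and the receptor-bound kinases JAK1 and TYK2 pass the signal on to transcription factors, among them STAT2 and IRF9, that bind interferon-stimulated response elements in target promoters. In osteoclast precursors, the cytokine RANKL induces interferon beta, which restrains osteoclast formation. The product of Ptprc is CD45, a phosphatase on the surface of blood cells that acts on Src-family kinases and has also been described as a phosphatase of JAK kinases. FLT3 ITD is an internal tandem duplication that makes the FLT3 receptor tyrosine kinase constitutively active.

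The cultures started from marrow cells positive for CD11b, taken from C57BL/6J mouse lines, and are grouped by genotype: wild type (WT), Ptprc knockout (Ptprc KO), FLT3 ITD knock-in (FLT3 ITD) and the knock-in with the knockout (FLT3 ITD Ptprc KO), with 4 libraries each. Cells received 50 ng/ml M-CSF for 3 days and then 20 ng/ml RANKL as well, and were harvested for RNA between day 3 and day 5, at the first sight of mature osteoclasts. The labels give no day, age or sex for single libraries and do not say whether the replicates are separate animals, so p-values measure the spread between these libraries, which may be technical. The RNA is from whole cultures, so fewer cells of a type and less RNA per cell cannot be told apart.

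Library totals ran from 24211724 to 35773313 counts. Ptprc was at 434 to 512 CPM in WT, a unit that sets each gene's count relative to all counts of its library, and 212 to 490.1 CPM in FLT3 ITD. It was at 29.3 to 46.6 CPM in Ptprc KO and 55.3 to 80.2 CPM in FLT3 ITD Ptprc KO, below every library that carries the gene. Osteoclast markers were present in every library, Acp5 at 1304 CPM or more. FLT3 ITD replicate 4 stood apart from the other 3 libraries of its genotype and FLT3 ITD Ptprc KO replicate 3 from its own, in both cases in the osteoclast markers: the 14 markers summed to 15750 CPM in the first and to 51110 CPM in the second. FLT3 ITD replicates 1 and 3 were unusually alike, their chi-square per gene being 2.76, where the second most alike pair within a genotype reached 13. FLT3 ITD replicate 2 had a trend with gene length that no other library had at that size, with a Spearman correlation across all tested genes of -0.46 against a range of -0.18 to 0.18 in the others. The medians and counts of the comparisons that use these libraries are also given without them where that moves them.

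RefSeq promoter windows of 300 bases, from 250 before to 50 after the annotated start site (GRCm38.p6), were found for 35 of the 41 genes. The core of the interferon-stimulated response element, GAAANNGAAA on either strand, occurred in the windows of 21 of the 35 genes (60%). It occurred in 52.4% of the genes' 42 windows and in 3.44% of all 32851 windows. The gamma-activated site, TTCNNNGAA, a motif of interferon gamma responses, occurred in 10 genes (28.6%), or 23.8% of their windows against 8.3% of all windows. The 2 motifs share letters and can overlap: 149 of all windows held both, and in 24 of them the hits overlapped. A match is a description of the letters and not evidence of binding. The stretches below show how the core is arranged in genes described later, read along the gene from 5′ to 3′ with the core in capitals. On the opposite strand the core reads TTTCNNTTTC.
Isg15: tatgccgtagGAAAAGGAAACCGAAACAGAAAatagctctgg
Bst2: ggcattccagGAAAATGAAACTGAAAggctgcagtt
Stat2: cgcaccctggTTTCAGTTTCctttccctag
Igtp: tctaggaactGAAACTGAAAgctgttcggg
Cxcl10: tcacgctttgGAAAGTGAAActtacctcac
Ifit3: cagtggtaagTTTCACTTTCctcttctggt
Ifit3b: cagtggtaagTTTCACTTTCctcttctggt
Gbp2: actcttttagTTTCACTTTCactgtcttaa
Gbp7: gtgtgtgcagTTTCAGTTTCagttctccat

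Isg15 carries 3 overlapping cores, beginning at position -78 from its start site (chr4:156200865-156200906, minus strand), and Bst2 carries 2, beginning at -130 (chr8:71537577-71537612, minus strand). Each of the others shown has 1 core in its stretch: Stat2 at -222 (chr10:128270266-128270295, plus strand), Igtp at -34 (chr11:58199512-58199541, plus strand) and Cxcl10 at -213 (chr5:92349083-92349112, minus strand). The stretches of Ifit3 (chr19:34583363-34583392, plus strand) and Ifit3b (chr19:34607759-34607788, plus strand) have the same letters, and reads of these near copies may have been split between them. Gbp2 (chr3:142620594-142620623, plus strand) and Gbp7 (chr3:142530273-142530302, plus strand) both hold a core, at -59 and -53, although their levels differed across libraries as described below. In the GENCODE M21 annotation the stretches lie upstream of their genes, except that of Gbp2, which runs past the annotated gene start.

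The levels of the 41 genes spanned 3 orders of magnitude per length. On the authors' TPM scale, which divides by gene length, averaged over the 16 libraries, Ifitm3, which blocks virus entry at endosomes, was highest at 1199 TPM. Bst2, the tetherin that holds budding virus at the cell surface, followed at 285.6 TPM, and Rtp4, a chaperone of G-protein-coupled receptors, at 84.4 TPM. Ifi44 (1.104 TPM), Ifit3b (1.75 TPM) and Isg20, a nuclease of single-stranded RNA (2.35 TPM), were lowest.

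The most regular feature of these genes was that they moved together within genotypes. In each genotype 1 library was highest for nearly all of them: WT replicate 1 for 41 of 41 genes, Ptprc KO replicate 1 for 38, FLT3 ITD replicate 4 for 38 and FLT3 ITD Ptprc KO replicate 1 for 36. The median ratio of that library to the mean of the other 3 was 2.32 in WT, 2.11 in Ptprc KO, 4.25 in FLT3 ITD and 1.84 in FLT3 ITD Ptprc KO. FLT3 ITD replicate 2 was the lowest of all 16 libraries for 32 of the 41 genes. Over all 16, the highest value lay in FLT3 ITD Ptprc KO replicate 1 for 19 genes, in FLT3 ITD replicate 4 for 12 and in WT replicate 1 for 8.

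The summed level of the 41 genes in replicates 1 to 4 was 2577, 1191, 1079 and 1491 CPM in WT. It was 2300.0, 1207, 965.3 and 1248 CPM in Ptprc KO. In FLT3 ITD it was 988.4, 675.2, 1064 and 2968 CPM. In FLT3 ITD Ptprc KO it was 3344, 1279, 2074 and 2247 CPM. The 4 ranges overlapped, and the sums of all genotypes but FLT3 ITD Ptprc KO had 3 low libraries and 1 high library. The mean of log2(CPM + 1) over the genes averaged 4.88 ± 0.59 (SD, n = 4) in FLT3 ITD Ptprc KO, 4.50 ± 0.63 in WT, 4.36 ± 0.56 in Ptprc KO and 4.05 ± 0.98 in FLT3 ITD. Neighbours in this order differed by less than their SDs.

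**Figure D1:**
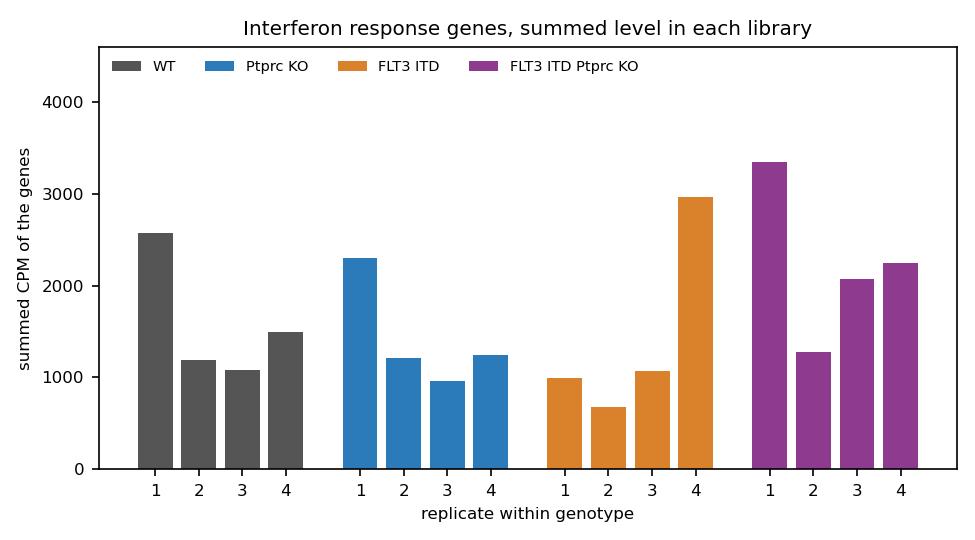
Summed CPM of the 41 interferon response genes (y axis) in each library, with the replicates of each genotype side by side (x axis). Bars run from 675.2 CPM in FLT3 ITD replicate 2 to 3344 CPM in FLT3 ITD Ptprc KO replicate 1, and the ranges of the 4 genotypes overlap.

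**Figure D2:**
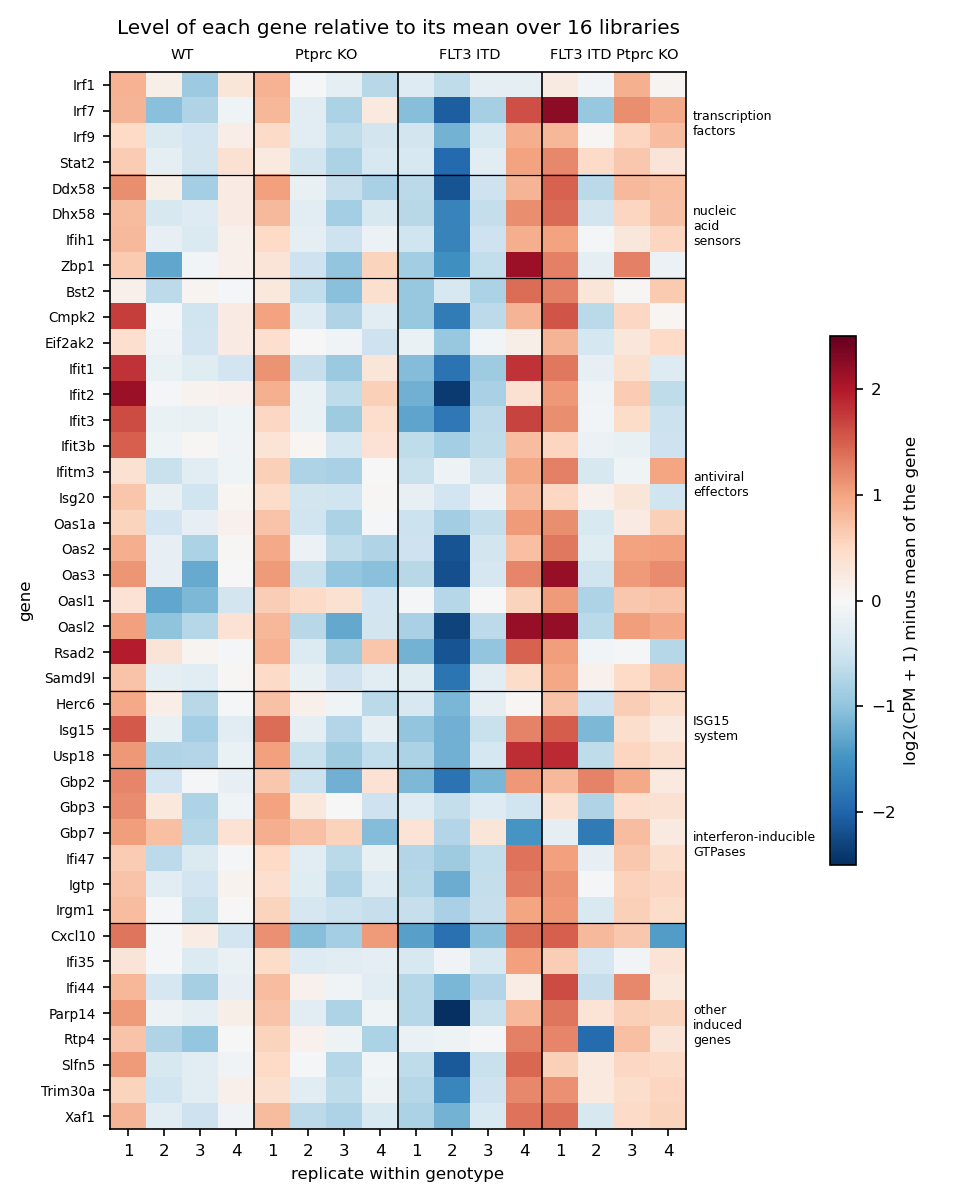
Level of each of the 41 genes (rows, grouped by role) in each library (columns, grouped by genotype) as log2(CPM + 1) minus the mean of that gene over 16 libraries, with the colour scale ending at 2.5 in each direction. WT replicate 1, Ptprc KO replicate 1, FLT3 ITD replicate 4 and FLT3 ITD Ptprc KO replicate 1 are high for most rows and FLT3 ITD replicate 2 is low, while Gbp7 and Gbp3 do not follow FLT3 ITD replicate 4.

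Levels of cell type markers were set beside these sums. The osteoclast marker sum in FLT3 ITD Ptprc KO had a median of 11450 CPM against 53390 CPM in FLT3 ITD, 46290 CPM in Ptprc KO and 38070 CPM in WT. FLT3 ITD Ptprc KO replicate 3, whose osteoclast markers at 51110 CPM were near those of FLT3 ITD, had an interferon response sum of 2074 CPM, above FLT3 ITD replicates 1 to 3. WT replicate 1 and Ptprc KO replicate 1 had high interferon response sums with osteoclast scores, as the mean of log2(CPM + 1), of 9.58 and 9.47, inside the range of their genotypes. FLT3 ITD replicate 4 had the lowest osteoclast score of its genotype, 8.30, and the highest interferon response sum, 2968 CPM. Whether osteoclast content bears on the interferon response levels was not tested. The 13 macrophage markers had their highest scores in WT replicate 3 (7.37), Ptprc KO replicate 4 (7.36), FLT3 ITD replicate 4 (7.26) and FLT3 ITD Ptprc KO replicate 2 (7.34), and FLT3 ITD replicate 4 alone among these was the highest of its genotype for the interferon response genes. The 8 markers of plasmacytoid dendritic cells, the main producers of interferon alpha in blood, summed to 26.2 to 56.2 CPM over the libraries, and the defining marker Siglech had 25 counts over all 16. The 8 markers of other dendritic cells summed to 37.8 to 62.8 CPM in WT, 27.8 to 41.9 CPM in Ptprc KO, and 37.7, 19.8, 34.0 and 149 CPM in FLT3 ITD replicates 1 to 4. They summed to 88.5, 404, 64.0 and 256 CPM in FLT3 ITD Ptprc KO, above FLT3 ITD replicates 1 to 3 in every library, as the interferon response sums were. Most of that sum was Itgax, the integrin CD11c. As the mean of log2(CPM + 1), the markers overlapped. They scored 1.261, 2.088, 1.295 and 1.736 in FLT3 ITD Ptprc KO and 1.406, 1.151 and 1.409 in FLT3 ITD replicates 1 to 3. FLT3 ITD Ptprc KO replicate 2 had the highest dendritic sum and, at 1279 CPM, the lowest interferon response sum of its genotype. The part of Itgax in the interferon response levels was not tested. The T and NK cell markers Cd3e and Ncr1 had 4 counts each, and the 10 T and NK markers summed to at most 46.9 CPM in WT, 46.5 CPM in Ptprc KO, 10.3 CPM in FLT3 ITD and 7.90 CPM in FLT3 ITD Ptprc KO.

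**Figure D3:**
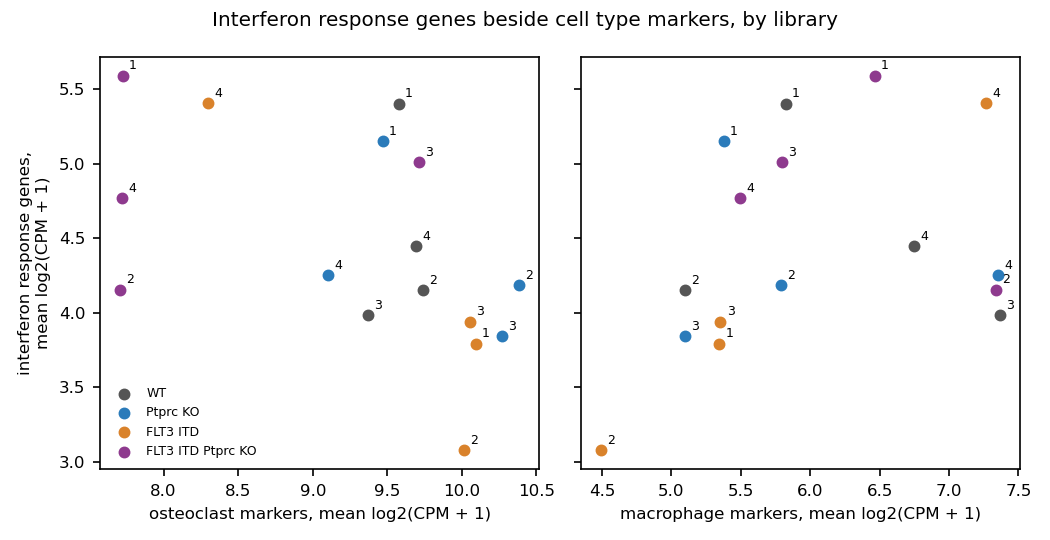
Mean log2(CPM + 1) of the 41 interferon response genes (y axis) against the same mean for 14 osteoclast markers (left) and 13 macrophage markers (right), 1 point per library, coloured by genotype and numbered by replicate. FLT3 ITD Ptprc KO replicates 1, 2 and 4 sit at low osteoclast scores (7.71 to 7.73) and span 4.16 to 5.59 on the y axis.

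The 9 interferon genes examined were almost without reads, and other interferon genes were not examined. Ifnb1, which encodes interferon beta, had 4 counts over the 16 libraries, spread over 4 of them. Ifna2 had 1 count, Ifng had 2, and Ifna1, Ifna4, Ifna5, Ifne, Ifnl2 and Ifnl3 had 0. A count of 0 in a library allows a level of up to 3 counts, or 0.0839 to 0.124 CPM depending on its total, for counting error only. The receptor genes were well covered. Ifnar1 was at 170 to 266 CPM in WT, 142 to 285 CPM in Ptprc KO, 81.2 to 251 CPM in FLT3 ITD and 192 to 392 CPM in FLT3 ITD Ptprc KO. Ifnar2 was at 35.2 to 77.1 CPM over all libraries. Socs1, which switches off JAK signalling, was at 0.682 to 4.44 CPM. None of these 3 genes passed the test described next in any comparison of all 16 libraries.

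Comparisons between genotypes used edgeR's quasi-likelihood test over all 16 libraries, with p-values adjusted by the Benjamini-Hochberg method over the 12093 genes. No gene of the list passed an adjusted p of 0.05 in any of the 5 pairwise comparisons or in the interaction, which asks whether the effect of Ptprc loss differs with FLT3 ITD. Few genes passed at all: 0.0413% in FLT3 ITD against WT, 0.0331% in Ptprc KO against WT, 0.00827% in FLT3 ITD Ptprc KO against FLT3 ITD, 0.0992% in FLT3 ITD Ptprc KO against Ptprc KO, 0.108% in FLT3 ITD Ptprc KO against WT and 0.00827% in the interaction. DESeq2 called none of the 41 either, in any of the 6, although it called more of all genes. Its shares were 0.496% in FLT3 ITD against WT, 0.091% in Ptprc KO against WT and 8.14% in FLT3 ITD Ptprc KO against FLT3 ITD. They were 2.75% in FLT3 ITD Ptprc KO against Ptprc KO, 0.968% in FLT3 ITD Ptprc KO against WT and 1.36% in the interaction. The comparisons share libraries and are not independent of each other.

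In FLT3 ITD against WT, 19 of the 41 genes had a positive and 22 a negative log2 fold change, with a median of -0.05 against 0.04 over all genes, of which 54.5% were positive. At an unadjusted p under 0.05, 0 of 41 were higher and 1 was lower, where 5.3% of all genes were higher and 3.23% lower. That gene was Ifit2, an RNA-binding protein that limits viral translation. Ifit2 was at 43.9, 8.94, 9.72 and 9.79 CPM in WT replicates 1 to 4 and at 3.40, 0.920, 4.78 and 12.1 CPM in FLT3 ITD. The groups overlapped through FLT3 ITD replicate 4, and the difference of -1.59 (SE 0.71) on the log2 scale had an adjusted p of 0.584 with edgeR. Its relative Ifit3b had a log2 difference of -1.13 (SE 0.92, edgeR adjusted p = 0.696). Oasl1, a repressor of Irf7 translation, went the other way at 0.71 (SE 0.44, edgeR adjusted p = 0.617). The direction of the median rested on single libraries: it was -0.91 without FLT3 ITD replicate 4, with 39 of 41 genes negative, and 0.29 without WT replicate 1, with 31 positive. It was also positive without FLT3 ITD replicate 1, 2 or 3, at 0.14, 0.23 and 0.13, and with replicates 1 and 3 summed, at 0.13. No gene of the list passed in any of these fits.

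In Ptprc KO against WT, 12 genes were positive and 29 negative, with a median of -0.12 against 0.02 over all genes. None was past an unadjusted p of 0.05, where 0.339% of all genes were higher and 0.513% lower. Oasl1 came nearest. It was at 18.4, 5.20, 5.98 and 9.98 CPM in WT and at 22.4, 20.3, 18.9 and 9.87 CPM in Ptprc KO. Thus 3 knockout libraries were above all WT libraries and 1 lay inside the WT range, and the log2 difference was 0.93 (SE 0.44, edgeR adjusted p = 1). Rsad2, or viperin, which makes a chain-terminating nucleotide, was at 49.1 CPM in WT replicate 1 and at 11.3 to 14.96 CPM in the other WT libraries. It was at 22.5, 9.17, 5.96 and 19.6 CPM in Ptprc KO, with a log2 difference of -0.56 (SE 0.78, edgeR adjusted p = 1). Without WT replicate 1 the median of the 41 genes became 0.26, with 40 positive, and Rsad2, its neighbour Cmpk2, Ifit2 and Ifit3b changed sign.

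In FLT3 ITD Ptprc KO against FLT3 ITD, 39 of the 41 genes were positive and 2 negative, with a median of 0.48 against 0.03 over all genes, of which 52% were positive. The median was 0.23 without FLT3 ITD Ptprc KO replicate 1, 0.27 without FLT3 ITD replicate 2 and 0.37 with FLT3 ITD replicates 1 and 3 summed, with none passing. At an unadjusted p under 0.05, 2 of 41 genes were higher and 0 lower, where 12.1% of all genes were higher and 13.8% lower. Those 2 were Ifi44 and Samd9l. Ifi44, which has a GTP-binding motif, was at 0.618, 0.200, 0.590 and 1.99 CPM in FLT3 ITD. It was at 7.16, 0.767, 5.09 and 2.16 CPM in FLT3 ITD Ptprc KO. The double mutant thus had 3 libraries above all FLT3 ITD libraries, and the log2 difference was 2.03 (SE 0.77, edgeR adjusted p = 0.139). Samd9l, an inhibitor of translation that restricts poxviruses, was at 76.1, 25.8, 76.8 and 129 CPM in FLT3 ITD. It was at 185, 101, 133 and 154 CPM in FLT3 ITD Ptprc KO, with overlap only between FLT3 ITD replicate 4 and replicate 2 of the double mutant, and the log2 difference was 0.79 (SE 0.37, edgeR adjusted p = 0.191).

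Irf1, an activator that also responds to interferon gamma, was the only gene of the list whose ranges did not overlap here, where 7.1% of all genes did not overlap and were higher. Irf1 was at 31.2, 25.0, 33.3 and 33.0 CPM in FLT3 ITD and at 46.4, 37.5, 73.5 and 41.2 CPM in FLT3 ITD Ptprc KO. Its log2 difference was 0.61 (SE 0.33, edgeR adjusted p = 0.249). In contrast to most of the list, Irf1 was not raised in FLT3 ITD replicate 4. Herc6, the mouse ligase that attaches ISG15, had a log2 difference of 0.71 (SE 0.37, edgeR adjusted p = 0.226). Oas2, which makes the second messenger that activates RNase L, had 1.04 (SE 0.55, edgeR adjusted p = 0.238), and Parp14, an ADP-ribosyltransferase, had 0.99 (SE 0.55, edgeR adjusted p = 0.254).

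Leaving out FLT3 ITD replicate 4, which stood apart in its osteoclast markers and was also the highest of its genotype for 38 of the genes, changed this comparison. Then 18 of 41 genes passed the adjusted threshold, all higher in FLT3 ITD Ptprc KO, where 6.9% of all genes tested passed and were higher. The median was 1.48 against 0.06 over all genes, and 40 of 41 were positive. The count depended on the remaining 3 FLT3 ITD libraries. With replicates 1 and 3, the pair that were unusually alike, also summed into 1 library, 8 of 41 passed, where 2.46% of all genes passed and were higher, and the median was 1.62. With replicate 2, which had the trend with gene length and was also the lowest for most of the genes, left out besides replicate 4, none of the 41 passed, where 0% of all genes passed and were higher, and the median was 1.36 with 40 positive. Leaving out only FLT3 ITD replicate 4 takes the highest library from 1 genotype and not from the other. With the library highest for these genes left out of every genotype, a choice made by their own level, none of the 41 passed, where 0% of all genes passed and were higher, and the median was 1.20. The 18 genes therefore depend on which libraries are kept. With FLT3 ITD Ptprc KO replicate 3 left out besides FLT3 ITD replicate 4, 24 of 41 passed, all higher, where 15.7% of all genes passed and were higher, and the median was 1.54. With only FLT3 ITD Ptprc KO replicate 3 left out, none of the 41 passed, where 3.29% of all genes passed and were higher. The median was then 0.51.

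The genes that passed without FLT3 ITD replicate 4 came from 5 of the 6 role groups. That library was the highest of its genotype for 38 of the genes. Leaving it out of FLT3 ITD alone therefore raises most of the log2 differences in advance. The counts by role, here and below, split the 18 genes of this single fit, where 6.9% of all genes tested passed and were higher. Nearly all genes that did not pass were also positive. The median log2 difference was 1.73 in antiviral effectors, 1.67 in nucleic acid sensors and 1.54 in the ISG15 system. It was 1.46 in the other induced genes, 1.30 in transcription factors and 1.22 in interferon-inducible GTPases. Of the transcription factors 3 of 4 passed as higher. Irf7, the master regulator of interferon alpha genes, was at 13.8, 6.44 and 16.5 CPM in FLT3 ITD replicates 1 to 3, at 93.4 CPM in replicate 4, and at 146, 15.2, 68.5 and 58.9 CPM in FLT3 ITD Ptprc KO. Without replicate 4 its log2 difference was 2.49 (SE 0.66, edgeR adjusted p = 0.035), although replicate 2 of the double mutant lay inside the FLT3 ITD range. Stat2 was at 21.7, 6.84 and 24.0 CPM in FLT3 ITD replicates 1 to 3, at 59.6 CPM in replicate 4, and at 68.2, 40.99, 47.1 and 36.8 CPM in the double mutant. All 4 double mutant values were above the first 3 FLT3 ITD values and 3 were below the last, and without replicate 4 the log2 difference was 1.42 (SE 0.38, edgeR adjusted p = 0.0352). Irf9, the DNA-binding partner of STAT2, had 1.17 (SE 0.28, edgeR adjusted p = 0.03).

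Of the sensors of foreign nucleic acid 2 of 4 passed as higher without FLT3 ITD replicate 4. Ifih1, the receptor MDA5 for long double-stranded RNA, was at 19.0, 7.92, 18.8 and 52.0 CPM in FLT3 ITD and at 56.1, 26.6, 33.6 and 40.3 CPM in FLT3 ITD Ptprc KO. Its log2 difference without replicate 4 was 1.30 (SE 0.34, edgeR adjusted p = 0.035). Dhx58, or LGP2, had 1.62 (SE 0.46, edgeR adjusted p = 0.0377). Ddx58, the receptor RIG-I, and Zbp1, a sensor of Z-form nucleic acid, stayed just outside at 1.71 and 2.04, with edgeR adjusted p of 0.0559 and 0.0513.

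Of the antiviral effectors 5 of 16 passed as higher without FLT3 ITD replicate 4: Bst2, Oas1a, Oas2, Oasl2 and Samd9l, by 1.28, 1.13, 1.74, 2.31 and 1.21 on the log2 scale. Oasl2 was at 16.97, 5.32, 18.9 and 142 CPM in FLT3 ITD and at 144, 18.6, 63.7 and 59.4 CPM in FLT3 ITD Ptprc KO, so that the highest libraries of both genotypes were nearly equal. The Ifit genes did not pass although their log2 differences were 1.92 to 2.32, with edgeR adjusted p from 0.0517 to 0.0692. Ifit1, which binds RNA that lacks a mammalian cap, was at 3.28, 1.52, 3.88 and 30.4 CPM in FLT3 ITD and at 21.4, 6.88, 11.0 and 6.24 CPM in FLT3 ITD Ptprc KO. Ifitm3, the most abundant, was at 149, 198, 159 and 424 CPM in FLT3 ITD and at 523, 165, 202 and 430.5 CPM in the double mutant, and its log2 difference without replicate 4 was 0.88 (SE 0.39, edgeR adjusted p = 0.114).

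None of the 3 genes of the ISG15 system passed without FLT3 ITD replicate 4. Isg15, a ubiquitin-like modifier, was at 4.61, 3.80, 6.52 and 25.3 CPM in FLT3 ITD and at 30.7, 4.09, 14.1 and 12.1 CPM in FLT3 ITD Ptprc KO. Its log2 difference was 1.54 (SE 0.70, edgeR adjusted p = 0.124). Usp18, which removes ISG15 and also blocks the interferon receptor, had 1.76 (SE 0.68, edgeR adjusted p = 0.0813), and Herc6 had 0.92 (SE 0.39, edgeR adjusted p = 0.103).

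The interferon-inducible GTPases, which attack the membranes around intracellular pathogens, were divided. Without FLT3 ITD replicate 4, 4 of 6 passed as higher: Gbp2, Igtp, Ifi47 and Irgm1. Gbp2 was at 2.97, 1.40, 2.89 and 17.3 CPM in FLT3 ITD and at 14.0, 19.3, 15.5 and 9.13 CPM in FLT3 ITD Ptprc KO. Here all 4 double mutant values were above the first 3 FLT3 ITD values, and the log2 difference without replicate 4 was 2.55 (SE 0.56, edgeR adjusted p = 0.0281). Igtp had 1.53 (SE 0.35, edgeR adjusted p = 0.0287), but its gene overlaps Irgm2 on the same strand, and Ifi47 overlaps Olfr56 in the same way, so reads may be shared. Gbp7 was at 54.5, 25.4, 52.8 and 14.7 CPM in FLT3 ITD and at 36.2, 11.9, 73.3 and 49.8 CPM in FLT3 ITD Ptprc KO. It was lowest in the FLT3 ITD library in which most of the list was highest, and its log2 difference was 0.13 over all libraries and -0.12 without that library. The lowest Gbp7 value of each genotype lay in WT replicate 3 (25.6 CPM), Ptprc KO replicate 4 (19.5 CPM), FLT3 ITD replicate 4 and FLT3 ITD Ptprc KO replicate 2, the same libraries in which the macrophage markers were highest. Whether these markers bear on Gbp7 was not tested.

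Of the other induced genes 4 of 8 passed as higher without FLT3 ITD replicate 4: Trim30a, Slfn5, Parp14 and Ifi44. Trim30a was at 39.8, 20.7, 46.1 and 154 CPM in FLT3 ITD and at 146, 78.9, 90.4 and 96.4 CPM in FLT3 ITD Ptprc KO, and the log2 difference without replicate 4 was 1.48 (SE 0.31, edgeR adjusted p = 0.0261). Slfn5 had 1.38 (SE 0.38, edgeR adjusted p = 0.0369), Parp14 had 1.81 (SE 0.49, edgeR adjusted p = 0.0352) and Ifi44 had 2.92 (SE 0.80, edgeR adjusted p = 0.0356). Cxcl10, a chemokine that draws T cells and lies opposite Art3, was at 3.00, 1.84, 3.98 and 26.0 CPM in FLT3 ITD and at 28.0, 17.2, 15.5 and 2.89 CPM in FLT3 ITD Ptprc KO. Its log2 difference without replicate 4 was 2.40 (SE 0.77, edgeR adjusted p = 0.0506).

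**Figure D4:**
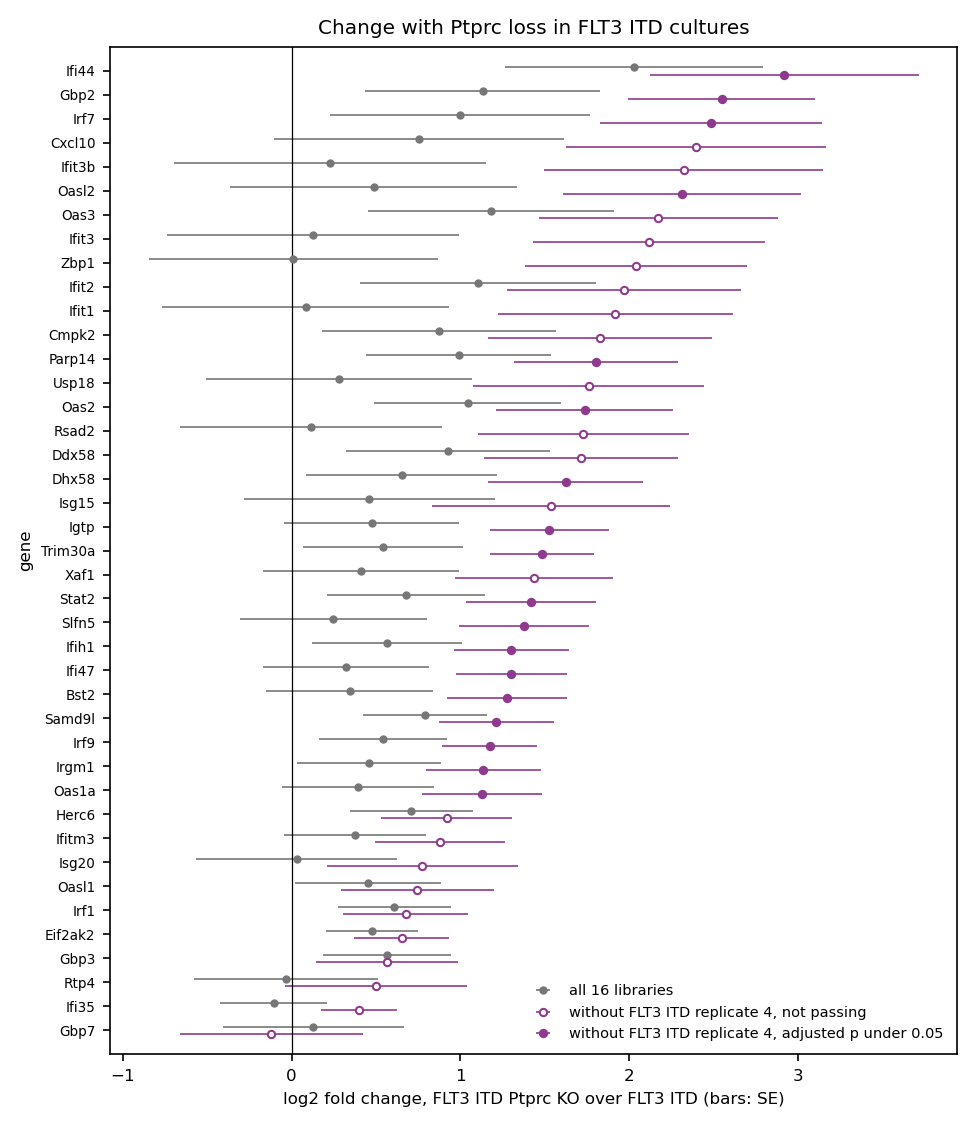
Log2 fold change of each of the 41 genes in FLT3 ITD Ptprc KO over FLT3 ITD (x axis) with its SE as a bar, from all 16 libraries (grey) and without FLT3 ITD replicate 4 (purple, filled where the edgeR adjusted p is under 0.05). Leaving out this library moves the median from 0.48 to 1.48 and fills 18 points, while Gbp7 stays near 0.

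Genes outside the list were read in the same way, and those said to rise or fall here passed the adjusted threshold. Of the interferon pathway genes (receptors, signal transducers, regulatory factors and inhibitors) 41 were tested, and none passed in FLT3 ITD Ptprc KO against FLT3 ITD over all libraries. Without FLT3 ITD replicate 4, 9 of 41 rose and none fell, among them Sting1, the adaptor of cytosolic DNA sensing (log2 difference 1.31, SE 0.26, edgeR adjusted p = 0.0261). Tlr3, the endosomal receptor for double-stranded RNA (1.93, SE 0.36, edgeR adjusted p = 0.0252), and Irf5 (1.55, SE 0.48, edgeR adjusted p = 0.0463) also rose. For reference, 6.9% of all genes tested rose and 8.16% fell in this fit. Of 80 further interferon-stimulated genes, a list that shares a gene with the pathway list, 32 rose and 1, the activation marker Cd69, fell. The 19 of these assigned to the interferon gamma class included 6 that rose, among them Cxcl9 (3.00, edgeR adjusted p = 0.0352) and Irgm2 (1.64, edgeR adjusted p = 0.0392). In the same fit 7 of 14 osteoclast markers fell, with Ctsk, the collagen-degrading protease, at -2.13 (SE 0.60, edgeR adjusted p = 0.0379), and none of 13 macrophage markers passed, although their median log2 difference of 1.96 was above the 1.48 of the interferon response genes. Adgre1, the macrophage marker F4/80, had 2.36 (SE 0.86, edgeR adjusted p = 0.0692). Among the other cell type markers Itgax rose (3.19, SE 0.61, edgeR adjusted p = 0.0261) and Cox6a2, a plasmacytoid dendritic cell marker, fell (-2.27, SE 0.72, edgeR adjusted p = 0.0491). Both went against the median of their lists. Itgax was the only 1 of 6 dendritic cell markers tested to pass, and their median was -0.32. Cox6a2 was the only 1 of 5 plasmacytoid dendritic cell markers tested to pass, and their median was 0.409. Klrb1c, an NK cell receptor, also passed as higher, on 0, 0 and 1 counts in FLT3 ITD replicates 1 to 3 against 5, 63, 17 and 9 in FLT3 ITD Ptprc KO, and had 49 counts in FLT3 ITD replicate 4. The part of these markers in the interferon response levels was not tested.

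In FLT3 ITD Ptprc KO against Ptprc KO, 37 of the 41 genes were positive, with a median of 0.67 against 0.05 over all genes, or 0.38 without FLT3 ITD Ptprc KO replicate 1. At an unadjusted p under 0.05, 1 of 41 was higher and 0 lower, where 8.83% of all genes were higher and 9.15% lower. That gene was Stat2. It was at 34.8, 20.8, 16.4 and 21.9 CPM in Ptprc KO, below all 4 double mutant libraries, and was the only gene of the list without overlap, where 2.67% of all genes did not overlap and were higher. Its log2 difference was 1.05 (SE 0.47, edgeR adjusted p = 0.275). Oas3, another oligoadenylate synthetase, was at 81.8, 25.7, 19.2 and 18.2 CPM in Ptprc KO and at 178, 26.8, 81.2 and 88.1 CPM in FLT3 ITD Ptprc KO, with a log2 difference of 1.39 (SE 0.73, edgeR adjusted p = 0.309). Irf9 (0.75, SE 0.38, edgeR adjusted p = 0.299), Samd9l (0.68, SE 0.37, edgeR adjusted p = 0.32) and Ifitm3 (0.72, SE 0.42, edgeR adjusted p = 0.348) were of the same sign.

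In FLT3 ITD Ptprc KO against WT, 34 of the 41 genes were positive, with a median of 0.51 against 0.05 over all genes. The median was 0.21 without FLT3 ITD Ptprc KO replicate 1 and 0.83 without WT replicate 1. At an unadjusted p under 0.05, 1 of 41, Oasl1, was higher and 0 lower, where 4.25% of all genes were higher and 3.74% lower. Oasl1 was at 30.8, 7.93, 23.1 and 23.9 CPM in the double mutant, with 3 libraries above all of WT, and the log2 difference was 1.16 (SE 0.44, edgeR adjusted p = 0.556). Irf7 had 1.38 (SE 0.78, edgeR adjusted p = 0.598).

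The interaction, the difference between the effects of Ptprc loss with and without FLT3 ITD, was positive for 37 of the 41 genes, with a median of 0.68 against 0.02 over all genes. None was past an unadjusted p of 0.05, where 7.46% of all genes were higher and 10.2% lower. Samd9l had 0.93 (SE 0.52, edgeR adjusted p = 0.335) and Stat2 had 1.09 (SE 0.66, edgeR adjusted p = 0.364). The median was 0.25 without WT replicate 1, 0.32 without FLT3 ITD Ptprc KO replicate 1, 0.40 without FLT3 ITD replicate 2 and 1.61 without FLT3 ITD replicate 4, again with none of the list passing. Without FLT3 ITD replicate 4 and FLT3 ITD Ptprc KO replicate 3 together, 8 of 41 passed, all higher, where 7.5% of all genes passed and were higher.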

How the data were processed

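RNA-seq libraries of 16 osteoclast cultures, 4 per genotype, were used. The submitters' processing notes name STAR 2.7.6a, featureCounts 2.0.3, UMI-tools 1.1.1, cutadapt 4.2 and bcl2fastq 2.20.0.422 with the build GRCm38.p6, and the authors deposited raw counts and TPM per gene. Library preparation was directional and poly(A)-selected, per the labels' protocols, and no source used here gives the strand setting of the counting. Irf9 overlaps Rnf31 on the same strand, and Irf7, Rtp4 and Cxcl10 overlap genes on the other strand.

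The 41 genes were fitted with all others in edgeR 4.0.16 (TMM factors 0.903 to 1.124, filterByExpr, quasi-likelihood test, 1 coefficient per genotype, 12 residual degrees of freedom, threshold 0.05). The SE of a log2 fold change was its size divided by the root of the F statistic. The biological coefficient of variation was 0.37. Levels are CPM. TPM was used only to compare genes. Alternatives were DESeq2 1.42.0, limma 3.58.1 on log2(TPM + 1), other filters and factors, a replicate block, and fits without single libraries. Fold changes are given for the 6 genes of the list with the smallest p per comparison at a mean of at least 1 CPM and for those passing with or without FLT3 ITD replicate 4. Others were chosen after their values were seen. The list, its role groups and the marker lists were chosen with earlier results of these data known.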

Additional observations from a re-analysis of the deposited data

Results flagged for a closer look

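In 76 sets of 4 libraries 11 had a library far from the other 3 by Dixon's test. A set was the CPM of a gene, or the score of all 41 genes, within a genotype. The genes were those among the 6 with the smallest p in any comparison. Chance alone flags about 1 in 20 such sets if values are normally distributed, which was not checked for these CPM values. These sets are also not independent, since the genes move together. In WT, replicate 1 stood highest for Cmpk2 (32.1 CPM), Ifit2 (43.9 CPM), Ifit3b (4.31 CPM) and Rsad2 (49.1 CPM). In Ptprc KO, replicate 1 stood highest for Cmpk2 (19.1 CPM) and Oas3 (81.8 CPM). In FLT3 ITD, replicate 4 stood highest for Ifit3b (2.22 CPM), Irf7 (93.4 CPM), Oasl2 (142 CPM) and Rsad2 (34.4 CPM). In FLT3 ITD Ptprc KO, replicate 2 stood lowest for Gbp3 (7.48 CPM).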

How the results depend on the processing

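In FLT3 ITD Ptprc KO against FLT3 ITD, leaving out 1 library at a time gave 0 to 18 genes passing and medians of 0.228 to 1.483, and in the interaction 0 passing and medians of 0.249 to 1.613. For FLT3 ITD against WT the median ran from -0.907 to 0.294. Without FLT3 ITD replicate 4 and FLT3 ITD Ptprc KO replicate 3, the medians were -0.906, 1.538 and 1.665 for these 3, listed as FLT3 ITD against WT, FLT3 ITD Ptprc KO against FLT3 ITD and the interaction, with 24 passing in the second and 8 in the third. Alternatives added after the data were seen gave, for FLT3 ITD Ptprc KO against FLT3 ITD, 8 passing and a median of 1.623 with FLT3 ITD replicates 1 and 3 summed and replicate 4 left out, 1.356 with none passing without replicates 2 and 4, and 1.202 with none passing without the highest library of each genotype. In Ptprc KO against WT, this last setting turned Ifit2 (0.049) and Ifit3b (0.259) positive, and leaving out WT replicate 1 turned Cmpk2, Ifit2, Ifit3b and Rsad2 positive, at the upper ends of their leave-one-out ranges of -1.028 to 0.208, -0.834 to 0.284, -0.863 to 0.373 and -0.794 to 0.17. The labels tie a replicate number to no shared animal or day, so the numbers were not taken to pair the libraries. Same-numbered libraries of different genotypes correlated at -0.633 to 0.851, over 0.1 in 12 of 24 pairs, and 8 of 16 libraries correlated best with their own number. These correlations do not decide whether same-numbered libraries are paired. With the replicate number as a block none of the 41 genes passed in any comparison, with medians of 0.663 in FLT3 ITD Ptprc KO against FLT3 ITD and 0.823 in the interaction. Genes passing overall went from 12 to 51 in FLT3 ITD Ptprc KO against Ptprc KO and from 13 to 24 in FLT3 ITD Ptprc KO against WT. DESeq2 called 984 genes in FLT3 ITD Ptprc KO against FLT3 ITD, where edgeR called 1, and none of the 41. On log2(TPM + 1) with limma the median there was 0.92, again with none passing. Low counts limit Ifi44, Ifit3b and Isg20.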
